A study of Homo sapiens with 2 samples.

Results

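The genes described here carry proteins into the endoplasmic reticulum (ER) and move them between the ER and the Golgi apparatus. They were taken by name from the deposited expression table: every gene whose symbol begins as those of the SEC proteins, the COPI coat (COPA, COPB, COPE, COPG and COPZ), the signal sequence receptors SSR1 to SSR4, the signal peptidase subunits (SPCS), the TRAPP subunits (TRAPPC), the signal recognition particle proteins (SRP) or the TMED cargo receptors. The name pattern matched 68 of the 10987 genes of the table, and 67 of them were kept. The hyphenated TMED7-TICAM2, a read-through of TMED7 into its neighbour, was left out. The choice went by symbol alone, with earlier results of these data known. All 67 are protein-coding in GENCODE 29.

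A protein with a signal sequence is recognised while it is still being made. The signal recognition particle brings the ribosome to the ER membrane, the SEC61 channel lets the growing chain through, and signal peptidase cuts the signal off. Finished proteins leave the ER in vesicles coated with COPII, while vesicles coated with COPI return escaped ER proteins and cargo receptors from the Golgi apparatus. Many of these genes are known targets of the unfolded protein response, the programme that cells switch on when misfolded proteins gather in the ER. Inhibition of the proteasome is a known trigger of that programme, because proteins taken out of the ER for degradation are no longer broken down.

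The cells were labelled THP1, the name of a human monocytic leukaemia line with the MLL-AF9 fusion. The agent was bort (bortezomib, a proteasome inhibitor), whose effect on transcript levels was the question. A single library was made from cells labelled THP1 after 24 h with bort, and another from cells of the same label left untreated. The dose used for this library is not given in the sources used here. With 1 library per condition every difference is between 2 libraries, has no replicate check and carries no test. The values are FPKM, fragment counts set against the length of the transcript and the mapped fragments of the library, so they can be compared between genes. The number of reads behind them is unknown. The higher of a gene's values was never under 0.501 FPKM. Marker genes went against the label, and whether the cells were THP1 was not tested. Of 15 monocytic marker genes 6 were in the table, with a summed 24.8 FPKM in the untreated and 64.4 FPKM in the bort-treated library. By 1.5-fold 4 of the 6 were higher and none lower, against 20.8% and 21.6% of all genes. LYZ, at 7.61 and 28.7 FPKM, and CD68, at 5.94 and 20.2 FPKM, passed 2-fold, where 8.08% of all genes were higher. The rest were SPI1, CD33, ITGAM and S100A9. ITGAM and S100A9 are in the table only through their bort-treated values. Not in the table were CD14, CSF1R, MPO, FCGR1A, CEBPA, S100A8, CTSS, FCN1 and VCAN. Of 15 erythroid markers 13 were in the table, all but SLC4A1 and EPB42, with a summed 3777 and 3266 FPKM. Most of that sum came from the globins HBG1, at 1487 and 1536 FPKM, and HBG2, at 1069 and 1056 FPKM. A total of 4 of the 13 were lower by 2-fold or more, where 10.2% of all genes were. These were KLF1, at 147.1 and 17.4 FPKM, and HBZ, at 584.0 and 158.5 FPKM. The others were GATA1, at 161.3 and 48.7 FPKM, and EPOR, at 8.43 and 2.83 FPKM. At 1.5-fold 6 of the 13 were lower and 2 higher, against 21.6% and 20.8% of all genes. The 2 higher ones were RHAG, at 221.8 and 363.3 FPKM, and TAL1, at 11.07 and 22.04 FPKM. By any amount 5 of the 13 were higher and 8 lower. The erythroid list thus differed between the libraries too. The part of this composition in the differences given here was not tested, and fewer cells of a type cannot be told apart from less RNA per cell.

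More of the transport genes were higher than lower in the bort-treated library. Differences are given as log2(FPKM + 1) of the bort-treated library minus that of the untreated library, a scale on which differences of weakly expressed genes come out too small. By this measure 46 of the 67 genes (68.7%) lay above 0, against 50.3% of all genes in the table. A total of 9 genes (13.4%) were higher by 2-fold or more, where 8.08% of all genes were. No transport gene was lower by 2-fold or more, where 10.2% of all genes were. At 1.5-fold 23 genes (34.3%) were higher and 4 (5.97%) lower, against 20.8% and 21.6% of all genes. The median difference was 0.37 for the transport genes and 0.0049 for the table. Their summed FPKM was 1124 in the untreated and 1365 in the bort-treated library, a change of 21.4%, while the sum of all genes differed by 5.48%.

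Both counts depended on the pseudocount. Without it, 15 transport genes passed 2-fold upwards and 4 downwards, the 4 being TRAPPC2L, TMED3, TRAPPC9 and SEC31B. The shares of all genes past 2-fold were then 15.1% and 15.6%, so both counts were also larger over the whole table. The differences of all genes also followed the GC content of their transcripts, as described further on. With that trend removed, the median of the transport genes was 0.19, with 7 genes past 2-fold upwards and 1 downwards, where 7.16% and 6.29% of all genes were. At 1.5-fold 13 of the 67 were then higher and 3 lower, against 17.6% and 17.5% of all genes. At that threshold the higher count was thus near the share of all genes, and the lower count well below it.

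**Figure D1:**
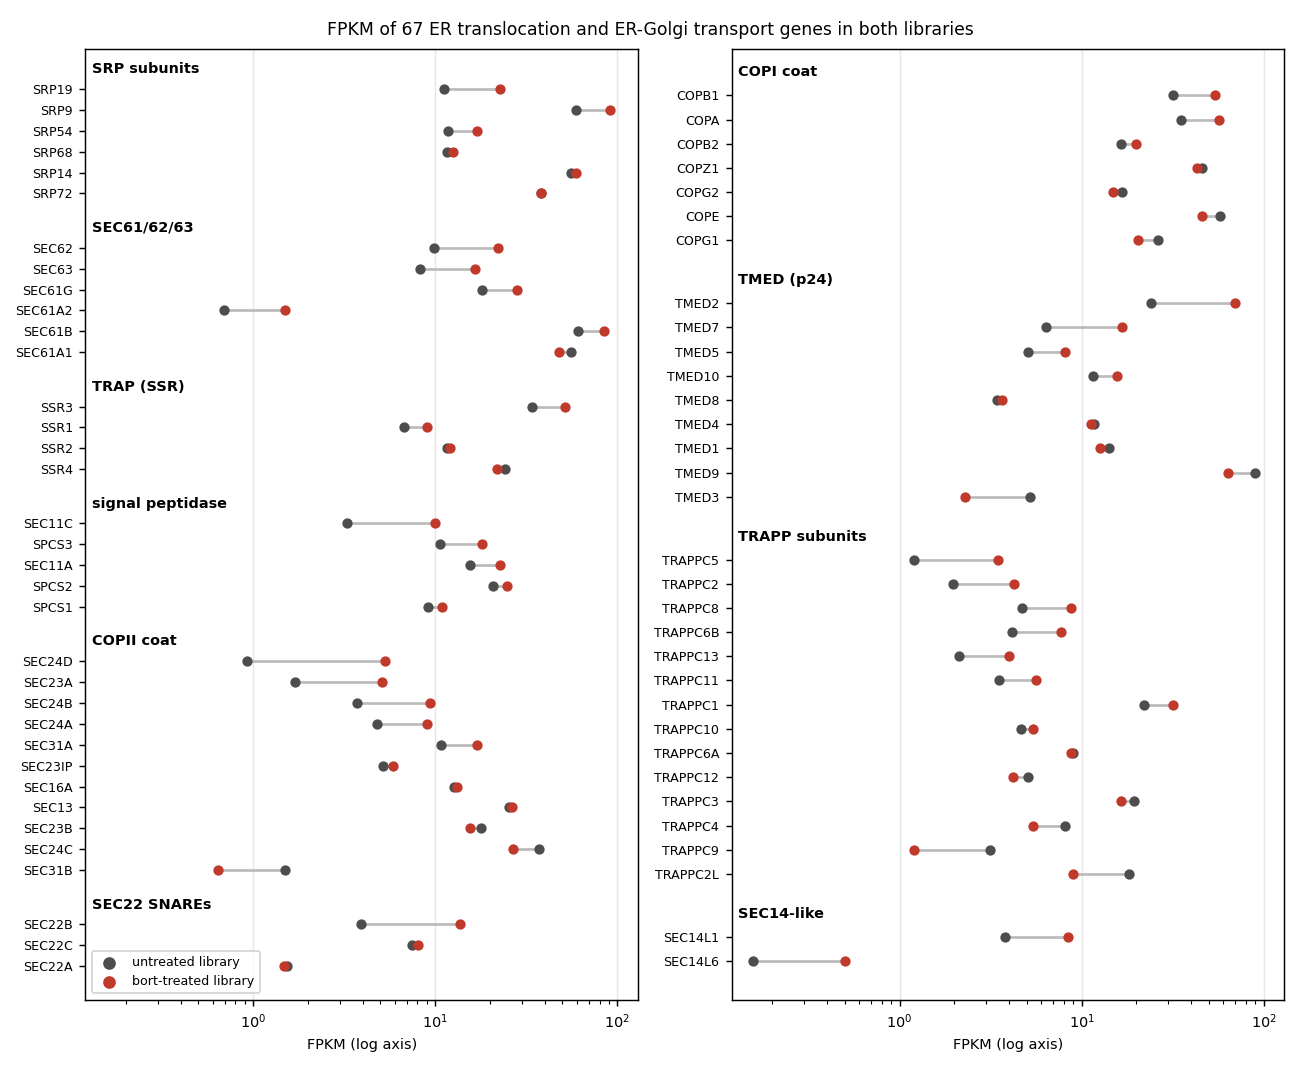
FPKM of each of the 67 genes on a log axis, grouped by role and ordered within a role by the difference, with the untreated library in grey and the bort-treated library in red (1 library each). The gaps show the ratio of the FPKM values without a pseudocount. The widest to the right are those of SEC24D, SEC22B, SEC14L6 and SEC11C, but SEC14L6 is in the table only through its bort-treated value. The red points of TRAPPC2L, TMED3, TRAPPC9 and SEC31B lie to the left of the grey ones.

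The signal recognition particle contains 6 proteins bound to an RNA, and all 6 protein genes were in the table. SRP9, which with SRP14 forms the part that slows translation, was at 59.3 FPKM in the untreated and 91.8 FPKM in the bort-treated library, a log2 difference of 0.62. SRP14 was at 55.8 and 59.7 FPKM. SRP19, needed to assemble the particle, was at 11.2 and 22.9 FPKM, the largest difference of the group at 0.97. The partners SRP9 and SRP14 were thus at similar levels in the untreated library and further apart in the other. SRP54, the subunit that binds the signal sequence, was at 11.8 and 17.1 FPKM. SRP72 had the lowest difference of the group, from 38.3 to 38.2 FPKM, a log2 difference of -0.0017. SRP68 was at 11.6 and 12.5 FPKM. The SRP19 value is uncertain because AC008575.1 overlaps it on the same strand. The median of the group was 0.30, and 2 of the 6 passed 1.5-fold, both upwards. With the GC trend removed the median was 0.14, and 1 of the 6 passed.

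The translocon group had a median of 0.58, with 5 of 6 genes above 0. SEC62 and SEC63 help the channel take in proteins after their synthesis and work with the ER chaperone BiP. SEC62 was at 9.92 FPKM in the untreated and 22.3 FPKM in the bort-treated library, a log2 difference of 1.09, and SEC63 was at 8.23 and 16.5 FPKM, a difference of 0.92. The channel itself has 3 subunits. SEC61A1, the pore, was at 55.4 and 48.2 FPKM, while SEC61B was at 60.9 and 85.2 FPKM and SEC61G at 18.2 and 28.2 FPKM. The pore subunit was therefore the lower and its small partners the higher in the bort-treated library, and SEC61A1 had the lowest difference of the group, at -0.20.

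The TRAP complex beside the channel, which helps some signal sequences to engage it, showed smaller differences. SSR3 was highest, from 34.1 to 51.5 FPKM (log2 difference 0.58), and SSR4 lowest, from 24.2 to 22.001 FPKM (-0.13). Between them lay SSR1, at 6.78 and 9.02 FPKM, and SSR2, at 11.7 and 12.1 FPKM. None of the 4 genes passed 1.5-fold, where 20.8% of all genes were higher and 21.6% lower. The SSR1 value is uncertain because CAGE1 overlaps it on the same strand in GENCODE 29.

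All 5 signal peptidase genes were higher in the bort-treated library, with a median of 0.52. SEC11A and SEC11C are alternative catalytic subunits. SEC11C was at 3.28 FPKM in the untreated and 9.98 FPKM in the bort-treated library, a log2 difference of 1.36, and SEC11A at 15.5 and 22.7 FPKM, a difference of 0.52. SPCS3, an accessory subunit, was at 10.6 and 18.1 FPKM, whereas SPCS1, with the lowest difference of the group, was at 9.12 and 10.9 FPKM. SPCS2, the other accessory subunit, was at 20.8 and 24.8 FPKM. With the GC trend removed the median of the group was 0.073 and SEC11C stood at 1.18.

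The COPII coat forms from an inner layer of SEC23 and SEC24 and an outer cage of SEC13 and SEC31, at sites set up by SEC16. SEC24 proteins choose the cargo, and the human genome has 4 of them. SEC24D had the largest difference of all 67 genes, from 0.922 FPKM in the untreated to 5.30 FPKM in the bort-treated library, a log2 difference of 1.71. SEC24B was at 3.72 and 9.40 FPKM (1.14), and SEC24A at 4.77 and 8.97 FPKM (0.79). SEC24C, the most abundant of the family, went the other way, from 37.1 to 26.7 FPKM (-0.46). In the same manner SEC23A was at 1.69 and 5.13 FPKM (1.19) and the more abundant SEC23B at 17.9 and 15.6 FPKM (-0.18).

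In the outer cage SEC31A was at 10.8 and 17.1 FPKM (log2 difference 0.62), while SEC31B had the lowest difference of the coat, from 1.51 to 0.641 FPKM (-0.61). SEC31B overlaps AL133352.1 on its strand, so its value is uncertain. SEC13 was at 25.3 and 26.3 FPKM and SEC16A at 12.7 and 13.2 FPKM, both nearly level. SEC23IP, which binds SEC23, was at 5.19 and 5.87 FPKM. SEC13 is also a subunit of the nuclear pore. By 2-fold or more 3 of the 11 COPII genes (27.3%) were higher and none was lower, where 8.08% and 10.2% of all genes were. With the GC trend removed 2 of the 11 were higher and none lower, where 7.16% and 6.29% of all genes were. The median of the 11 without that removal was 0.15. The 3 genes past 2-fold were set against 8 genes with smaller differences in both directions.

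In the SEC22 group the difference lay in SEC22B. SEC22B, a SNARE that fuses vesicles between ER and Golgi membranes, was at 3.91 FPKM in the untreated and 13.8 FPKM in the bort-treated library, a log2 difference of 1.59 and the second largest of the 67. SEC22A, at 1.53 and 1.48 FPKM, and SEC22C, at 7.50 and 8.05 FPKM, were nearly level. A pseudogene named SEC22B4P is annotated in GENCODE 29, and reads shared with it would make the SEC22B value uncertain. SEC22A overlaps PDIA5 on its strand.

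COPI is recruited to Golgi membranes as a whole complex, and its genes differed in both directions. COPA was at 34.99 FPKM in the untreated and 56.8 FPKM in the bort-treated library, a log2 difference of 0.68, and COPB1 at 31.9 and 53.7 FPKM, the largest of the group at 0.74. COPG1, the lowest, was at 26.2 and 20.5 FPKM (-0.34), and COPE was at 57.5 and 45.6 FPKM (-0.33). COPB2 was at 16.4 and 19.8 FPKM, COPZ1 at 45.7 and 43.2 FPKM and COPG2 at 16.7 and 14.8 FPKM. So 2 of the 7 genes in the table passed 1.5-fold, both upwards, and 4 lay below 0. The median of -0.080 changed sign when the libraries were scaled by the upper quartile (0.026), by their totals without the most abundant genes (0.027) or with the GC trend removed (0.090). COPE, COPB1 and COPG2 each overlap another protein-coding gene on their strand, which makes their values uncertain.

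TMED proteins, the p24 family, are receptors that travel between ER and Golgi apparatus and sort cargo into both coats. TMED2 was at 24.1 FPKM in the untreated and 69.3 FPKM in the bort-treated library, a log2 difference of 1.48, and TMED7 was at 6.33 and 16.7 FPKM, a difference of 1.27. TMED10, a known partner of TMED2 in the p24 complex, was at 11.6 and 15.7 FPKM (0.41). TMED9, the most abundant of the family in the untreated library, was at 89.7 and 63.4 FPKM (-0.49). TMED3 had the lowest difference, from 5.21 to 2.29 FPKM (-0.92). The other members of the family were TMED1, TMED4, TMED5 and TMED8, with differences between -0.15 (TMED1) and 0.57 (TMED5).

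The 9 TMED genes thus held 2 of the 5 highest and 1 of the 5 lowest differences among the 67, with a median of 0.071 that became -0.016 with the GC trend removed. Ranked by level, TMED9 stood at place 376 of the table in the untreated and 459 in the bort-treated library, and TMED2 at 1785 and 405. The TMED7 value is uncertain, since the read-through TMED7-TICAM2 shares its exons. That row was at 0.950 and 2.44 FPKM, also higher in the bort-treated library.

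TRAPP complexes tether vesicles and activate RAB1 and related GTPases. Of their 14 genes in the table, 8 were above 0 and 6 below. Upwards 5 of the 14 (35.7%) passed 1.5-fold, beside 20.8% of the whole table, and downwards 2 (14.3%), beside 21.6%. Once the GC trend was taken out, only 2 TRAPP genes passed 1.5-fold upwards and 2 downwards. Among all genes 17.6% and 17.5% then passed, so the upward excess of the TRAPP genes was gone. TRAPPC5 was highest, from 1.21 to 3.46 FPKM (log2 difference 1.02), but AC008763.3 overlaps it on its strand. TRAPPC2, whose loss causes a skeletal dysplasia, was at 1.97 and 4.26 FPKM (0.82), while its relative TRAPPC2L had the lowest difference of all 67 genes, from 18.3 to 9.01 FPKM (-0.95). A total of 8 pseudogenes named after TRAPPC2 are annotated, so its reads may be shared. Pseudogenes are named after 15 of the 67 genes in all. Of the core subunits, TRAPPC4 was at 8.12 and 5.37 FPKM (-0.52), TRAPPC3 at 19.5 and 16.4 FPKM (-0.23) and TRAPPC1, which AC104581.2 overlaps, at 22.1 and 31.8 FPKM (0.51).

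Subunits that belong to only 1 of the TRAPP assemblies also differed. TRAPPC8, TRAPPC11, TRAPPC12 and TRAPPC13 mark the TRAPPIII form. TRAPPC8 was at 4.68 and 8.74 FPKM (0.78), TRAPPC13 at 2.13 and 3.99 FPKM (0.67) and TRAPPC11 at 3.53 and 5.60 FPKM (0.54). TRAPPC12 was at 5.06 and 4.19 FPKM (-0.22), so the 4 did not share a direction in the deposited FPKM. With the GC trend removed TRAPPC8 stood at 0.33, TRAPPC11 at 0.19, TRAPPC13 at 0.11 and TRAPPC12 at 0.0008. TRAPPC9 and TRAPPC10 mark the TRAPPII form. TRAPPC9 was at 3.14 and 1.195 FPKM (-0.91) and TRAPPC10 at 4.66 and 5.39 FPKM (0.17). TRAPPC13 overlaps SHLD3 on its strand.

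The name pattern also took in SEC14L1 and SEC14L6, which belong to a family of lipid-binding proteins and not to the transport machinery. SEC14L1 was at 3.78 FPKM in the untreated and 8.37 FPKM in the bort-treated library (log2 difference 0.97). SEC14L6 was at 0.156 and 0.502 FPKM (0.38), the lowest level of the 67 in each library. No gene of the table had a higher value under 0.501 FPKM, so SEC14L6 was listed only through its bort-treated value. Its direction was thus fixed by its presence in the table. It is counted among the 46 genes above 0 and the 15 past 2-fold without a pseudocount.

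Shares within families of closely related genes were then compared, and scaling cancels in a share. It does not cancel in family sums compared between libraries, which were taken from the deposited FPKM only. Of the 10 families listed, 8 had more than 1 gene in the table, since SEC16B and COPZ2 were not among its genes. In 7 of the 8 the gene that led in the untreated library held a smaller share of the family in the bort-treated library. The leading gene was picked by its untreated value, so the direction of this count is not independent of that choice.

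In the deposited FPKM the families fell into those with a nearly level sum and those whose sum differed. The summed FPKM of SEC24 genes differed by 8.32%, from 46.5 to 50.4, but SEC24C held 79.8% of it in the untreated and 53.0% in the bort-treated library. SEC24A went from 10.2% to 17.8%, SEC24B from 8.003% to 18.7% and SEC24D from 1.98% to 10.5%. The SEC23 sum differed by 5.96%, from 19.6 to 20.7 FPKM, with the share of SEC23A going from 8.64% to 24.7%. In both families of the inner COPII layer, then, the total was nearly level in the deposited FPKM while the make-up differed. Their sums under other scalings were not computed.

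In the other families the sum moved as well, upwards in SEC22, SEC11, TRAPPC6 and SEC31 and downwards in COPG and SEC61A. The SEC22 sum differed by 80.2%, from 12.9 to 23.3 FPKM, and SEC22B went from 30.2% to 59.1% of it. The SEC11 sum differed by 73.8%, with SEC11C going from 17.5% to 30.5%. The TRAPPC6 sum differed by 25.5%, with TRAPPC6B, at 4.14 and 7.71 FPKM, going from 31.7% to 47.0% beside TRAPPC6A at 8.94 and 8.70 FPKM. The SEC31 sum differed by 44.2%, from 12.3 to 17.7 FPKM. In its shares SEC31 was the exception, since its leading gene SEC31A held 87.8% and then 96.4%. Shares within the COPG family differed least apart from SEC61A, with COPG1 at 61.1% and 58.0%. The COPG sum differed by -17.8%, from 42.9 to 35.3 FPKM, and the SEC61A sum by -11.5%, from 56.1 to 49.7 FPKM. SEC61A2, a rarely used pore gene, was at 0.694 and 1.505 FPKM and went from 1.24% to 3.03% of its family.

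The GC content of transcripts moved with these differences. Over the 10907 genes with a transcript in GENCODE 29 the Spearman correlation between log2 difference and GC content was -0.48, and over the 67 transport genes it was -0.59. These are descriptions across genes that share 2 libraries. The transport genes had a median GC content of 46.2%, below the 50.2% of all genes. All genes were split by GC content into 3 groups of equal size. In the group with the lowest GC content, 29 transport genes had a median difference of 0.60, against 0.39 for all genes there. In the middle group 28 had a median of 0.092 against -0.022, and in the highest group 10 had one of -0.14 against -0.42. The transport genes thus lay above the median of all genes in each group.

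With the trend removed 46 of the 67 lay above 0, of which 41 had also done so before. The median of the translocon group was then 0.38, that of the COPII coat 0.30, that of TRAP 0.25 and that of TRAPP 0.14, so that the order of the groups was not the same as without the correction. SEC24D (1.62), TRAPPC5 (1.83), TMED7 (1.25), SEC11C (1.18), TMED2 (1.05) and SEC23A (1.00) stayed past 2-fold, and SEC14L1 (1.07) was added. SEC22B (0.96), SEC24B (0.91) and SEC62 (0.60) were below it. TMED3, at -1.02, became the gene lower by 2-fold. Transcript length had a Spearman correlation of 0.049 with the difference over the 67 genes.

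Other genes of the same routes were taken from 6 lists, and 94 of the 98 symbols listed were in the table. Some genes were listed under 2 symbols. Over the lists 31 genes passed 1.5-fold upwards and 11 downwards, 12 and 3 passed 2-fold, and the median was 0.14. As shares of the 94 these were 32.98% and 11.7% at 1.5-fold, where 20.8% and 21.6% of all genes passed. At 2-fold the 12 higher genes were 12.8% of the 94, where 8.08% of all genes were higher and 10.2% lower. With the GC trend removed 24 and 5 of the 94 passed 1.5-fold, where 17.6% and 17.5% of all genes did. At 2-fold 8 and 2 then passed, where 7.16% and 6.29% of all genes did, so the higher count was near that share. Among genes of the COPII GTPase, exit sites and cargo receptors, 9 of 19 were higher and 4 lower by 1.5-fold, and 4 and 1 with the GC trend removed. YIPF5, which cycles between ER and Golgi membranes, had the largest difference, from 2.02 FPKM in the untreated to 14.2 FPKM in the bort-treated library (2.33). SAR1A, the GTPase that starts the coat, was at 7.33 and 21.0 FPKM (1.40), whereas PREB, which loads SAR1 with GTP, had the lowest, from 20.5 to 8.89 FPKM (-1.12).

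The COPI list had 4 of 13 genes (30.8%) higher and none lower by 1.5-fold, against 20.8% and 21.6% of all genes. These counts were the same with the GC trend removed. ARF4, a GTPase that acts early in the Golgi route, was highest, from 16.3 to 45.3 FPKM (1.42). ARCN1, the remaining COPI subunit, was at 19.97 and 26.5 FPKM (0.39). Tethers and SNAREs had 7 of 23 genes (30.4%) higher and 2 (8.70%) lower by 1.5-fold, and 7 and 0 with the GC trend removed. They ranged from USO1, the tether p115, at 11.5 and 32.7 FPKM (1.43), to the SNARE BET1L, at 26.6 and 14.1 FPKM (-0.87).

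On the translocation side, the SRP receptor and channel accessories had 2 of 10 genes higher and none lower by 1.5-fold. TRAM1, a membrane protein beside the channel, was highest, from 13.6 to 49.2 FPKM (1.78), and SRPRA, the SRP receptor, lowest, from 49.8 to 35.7 FPKM (-0.47). Of 12 oligosaccharyltransferase genes, which add sugar chains to proteins as they enter, 4 (33.3%) passed 1.5-fold upwards and none downwards. Among all genes 20.8% and 21.6% passed. Once the GC trend was taken out, 3 of the 12 passed upwards and none downwards, beside 17.6% and 17.5% of all genes. By any amount 7 of the 12 lay above 0 and 5 below. This list ran from OSTC, at 26.8 and 73.7 FPKM (1.42), to KRTCAP2, at 13.4 and 11.1 FPKM (-0.25). Of 17 genes that insert tail-anchored proteins or belong to the ER membrane protein complex (EMC), 5 were higher and 5 lower by 1.5-fold. That was 29.4% in each direction, against 20.8% and 21.6% of all genes, where both directions were also about equally frequent. CAMLG, a receptor for tail-anchored proteins, was highest, from 11.4 to 38.3 FPKM (1.66). GET4, which works before it in the cytosol, was lowest, from 37.1 to 8.34 FPKM (-2.03), but overlaps SUN1 on its strand.

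Promoters were read for elements of the unfolded protein response, because many of these genes are known targets of its transcription factors XBP1, ATF6 and ATF4. The RefSeq promoter windows (build GRCh38.p14) reach from 250 bases before to 50 bases after a gene start, and 61 of the 67 genes had at least 1. TRAPPC8, TMED9, SPCS1, SEC24D, TMED4 and TRAPPC9 had none in the table used. Of the elements, 4 were searched on both strands. The UPRE is TGACGTGG, bound by XBP1 and related factors, and the CRE is TGACGTCA, with which it shares its first 6 letters. The ERSE is CCAAT and CCACG separated by 9 bases, and the ERSE-II is ATTGG and CCACG separated by 1. The reverse complement of the UPRE, CCACGTCA, begins with the CCACG of both.

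The UPRE was in the windows of 10 of the 61 genes (16.4%), against 1.23% of the 8544 genes of the expression table with a window and 0.927% of all 27305 genes with a window. The CRE was in 1 (TRAPPC1, 1.64%) against 4.05%. No transport gene had an ERSE, found in 0.176%, or an ERSE-II, found in 0.140%, which says only that these letters are not in these windows. The matches to the UPRE are shown with 11 bases on each side, 5′ to 3′ on the strand of the gene, with the UPRE or its reverse complement in capitals. They are printed because the share of windows with this element differed most from that of all genes, although most of the 61 genes lack it. Genes come in the order of their difference.
SEC23A (chr14:39103221-39103250, minus strand): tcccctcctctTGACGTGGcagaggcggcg
SEC62 (chr3:169966779-169966808, plus strand): ccctcctcgctCCACGTCAgagggaaccgg
SRP19 (chr5:112861164-112861193, plus strand): aagtcttcatgCCACGTCAgagactagaga
SEC24A (chr5:134648595-134648624, plus strand): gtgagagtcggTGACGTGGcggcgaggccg
COPB1 (chr11:14499841-14499870, minus strand): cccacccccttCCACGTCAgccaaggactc
COPA (chr1:160343227-160343256, minus strand): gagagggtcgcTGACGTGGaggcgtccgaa
SSR3 (chr3:156554148-156554177, minus strand): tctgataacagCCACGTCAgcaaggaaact
COPB2, site nearer the start of its window (chr3:139389825-139389854, minus strand): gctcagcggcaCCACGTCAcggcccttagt
COPB2, site after the gene start (chr3:139389632-139389661, minus strand): tcccggaagttCCACGTCAgtcagtctgac
SEC16A (chr9:136484707-136484736, minus strand): tggccctggtgCCACGTCAgccggactgaa
SSR4 (chrX:153794528-153794557, plus strand): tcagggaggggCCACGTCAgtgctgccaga

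Of these 11 matches 8 (72.7%) had a C before the element when it was read as TGACGTGG, against 88 of 246 (35.8%) in the windows of all other genes, a feature looked for after the sequences had been seen. Counted from the gene start, the first base of the element lay between position -179 (SEC24A) and position 31 (COPB2). The 250 bases before the starts of SEC24A and COPB1 show the element in its surroundings, in capitals, with the gene start after the last base.
SEC24A (chr5:134648535-134648784, plus strand): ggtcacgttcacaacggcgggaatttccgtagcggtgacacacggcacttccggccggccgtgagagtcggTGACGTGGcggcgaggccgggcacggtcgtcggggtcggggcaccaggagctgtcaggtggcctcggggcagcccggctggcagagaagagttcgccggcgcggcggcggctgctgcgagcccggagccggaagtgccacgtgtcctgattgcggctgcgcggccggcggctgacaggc
COPB1 (chr11:14499812-14500061, minus strand): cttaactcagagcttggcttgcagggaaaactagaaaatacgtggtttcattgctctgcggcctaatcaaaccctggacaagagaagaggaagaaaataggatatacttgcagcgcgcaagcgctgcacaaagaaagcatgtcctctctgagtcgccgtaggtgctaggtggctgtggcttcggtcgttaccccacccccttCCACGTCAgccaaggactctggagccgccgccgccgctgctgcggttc

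The 10 genes with a UPRE were spread over 5 of the 10 role groups. They were SRP19 of the SRP, SEC62 of the translocon, SSR3 and SSR4 of TRAP, SEC16A, SEC23A and SEC24A in the COPII coat, and COPA, COPB1 and COPB2 in the COPI coat. Their median difference was 0.71, with 9 of 10 above 0 and 6 past 1.5-fold upwards. The 51 genes without it had a median of 0.24, with 34 above 0 and 15 past 1.5-fold. The ranges overlapped, as genes without the element held the largest differences (SEC22B, TMED2 and SEC11C) and the lowest. Within TRAP, SSR4 holds the element and had the lowest difference of that complex. With the GC trend removed SSR4 stood at 0.29, and SSR1, which lacks the element, was lowest at 0.033.

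The table held 105 genes with a UPRE in a window, the 10 transport genes among them. Over these 105 the median difference was 0.22 and 60.0% lay above 0, against a median of 0.0097 for genes without it. With the GC trend removed the median of the 105 was 0.16. GC content differed as well, with a median of 44.7% for the transcripts of the 10 genes and 46.4% for those of the 51. With the GC trend removed the median differences of the 10 and the 51 were 0.33 and 0.16. Whether any of these matches is bound in these cells was not measured. Among the genes of the pathway lists, 5 of 71 with a window held the element: ARF1, GBF1, KDELR3, SCFD1 and STX5.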

How the data were processed

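Per the labels and methods, THP1 RNA was sequenced, and the authors aligned reads with HISAT2 and assembled transcripts with StringTie. The submitters' processing notes name GRCh37. The deposited values are FPKM, although the title of the table speaks of counts, and the depth is unknown. The labels name a TruSeq kit and the methods a stranded KAPA kit, so whether strand was used is uncertain.

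Differences of log2(FPKM + 1) were taken between the 2 libraries, with thresholds of 2-fold and 1.5-fold. No filter on low values was applied. The members and lists were chosen with earlier results of these data known. Named are genes past 2-fold, the 5 highest and 5 lowest differences, the extremes of each role group and pathway list, and all paralogues of the families. A gene that this rule names is not reported here. Remaining genes were added after their values were seen, to complete a complex or a comparison.

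GC content, length, gene type and overlaps came from GENCODE 29 (GRCh38), matched by identifier for 10907 genes (99.3%), as the median over a gene's protein-coding transcripts, or over all its transcripts where it has none. Promoter windows came from RefSeq (GRCh38.p14). No coordinates were carried between builds. The GC trend was removed by lowess with a span of 0.3. Protein comparisons of paralogues were not made. Calculations were tested on simulated data. Scripts ran in Python 3.11.15 with statsmodels 0.14.6 for the lowess, scipy 1.17.1 for correlations, pandas 2.3.3 and numpy 2.4.6 for tables, and matplotlib 3.10.9 for plots. Alternatives were 3 other pseudocount choices, 3 scalings, a filter at 1 FPKM and removal of the GC trend.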

Additional observations from a re-analysis of the deposited data

How the results depend on the processing

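There was no spread between replicates to set a difference between settings against. The 9 genes higher by 2-fold became 14 with a pseudocount of 0.1 FPKM, 15 with none and 23 at 1.5-fold. The 0 genes lower by 2-fold became 4, 4 and 4 under the same settings, 2 with a pseudocount of 0.5 FPKM, 1 after removal of the GC trend, and 3 at 1.5-fold after that removal. The median of 0.37 was 0.41 and 0.39 with pseudocounts of 0.1 and 0.5 FPKM and 0.41 with none. Scaled by the median of ratios it was 0.36, by the upper quartile 0.41 and by totals without the 20 most abundant genes 0.42. It was 0.26 over the 63 genes that passed a filter of 1 FPKM, 0.19 with the GC trend removed and 0.25 without the 11 genes that overlap another protein-coding gene on their strand. The COPI median changed sign under upper quartile scaling (0.026), totals without the most abundant genes (0.027) and GC removal (0.090), and the TMED median under GC removal (-0.016). The 9 genes past 2-fold kept their direction in all 71 values computed and stayed past it in 68, the exceptions being SEC22B, SEC24B and SEC62 with the GC trend removed. The settings of 1.5-fold with GC removed, of genes without overlaps and of counting the read-through row were added after the data had been seen. No paired analysis was possible because there is a single library of each condition, and for the same reason none could be left out. The cause of these shifts was not tested. As the depth is unknown, the counting error of low genes such as SEC24D and SEC14L6 cannot be given.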
